A study of Mus musculus with 8 samples.

Results

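The genes described here are those that reached 1 FPKM in 2 or more of the 4 libraries made from day 15 cultures of wild-type (WT) and Hira-null mouse embryonic stem cells (mESCs), 13421 of the 24421 genes of the table. FPKM counts the fragments of a gene relative to its length and to the size of the library. WT cells were of the W9.5 line and Hira-null cells were Clone104, a single clone, and both carried an HA tag on the histone variant H3.3. Both were grown by hanging drop for 15 days towards beating cardiomyocytes, and the same cells at day 0 make up the other 4 of the 8 libraries of the series. There were 2 libraries per group, each from its own biological sample, so the errors below rest on 2 samples a group. The cultures were sequenced whole, without sorting. In such a mixture fewer cells of a type and less RNA per cell cannot be told apart.

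HIRA is a histone chaperone that places H3.3 into chromatin outside DNA replication. Cells in hanging drops form embryoid bodies, aggregates in which all germ layers arise together, so a culture aimed at cardiomyocytes also holds nerve cells, gut-like and yolk-sac-like endoderm, vessels and mesenchyme. The libraries were labelled as cardiomyocytes, and 5 defining cardiomyocyte markers, Tnnt2, Actc1, Actn2, Myl7 and Myh6, were present in all 4 day 15 libraries beside markers of those other lineages.

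Hira itself, the targeted gene (mm9 chr16:18877130-18970402, plus strand), was at 15.8 and 15.5 FPKM in WT and 16.7 and 19.8 FPKM in the libraries labelled Hira-null at day 15. The libraries labelled Hira-null were thus not lower at this day (log2 0.20 ± 0.11, adjusted p = 0.167, limma with Benjamini-Hochberg adjustment over the 14337 genes fitted). At day 0 the same gene was at 27.3 and 28.5 FPKM in WT and 12.4 and 11.4 FPKM in the libraries labelled Hira-null (log2 -1.17, adjusted p = 8.48e-05). Because the day 15 level goes against the label, the groups are called by their labels throughout, and every direction below is that of the libraries labelled Hira-null against WT. The part of Hira that was deleted is not known from the sources used here, and whether these reads cover it was not tested.

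The day 15 libraries held 8480380 to 11086294 fragments. Each log2 value below is a log2 fold change ± its standard error on the log2(FPKM + 1) scale, which understates the change of genes at low levels. A gene rose or fell where its adjusted p was 0.05 or less. Of the 13421 genes, 2656 rose (19.8%) and 2643 fell (19.7%), and 685 (5.10%) rose and 578 (4.31%) fell by 2-fold or more. The median log2 fold change of all of them was 0.02. The 2 libraries of a group lay outside the range of the other group in 100% of the called genes. The same share over all 13421 genes was not counted, so this share supports nothing beyond the calls. Of the 13421, 406 passed the FPKM minimum only through both WT libraries and 370 only through both libraries labelled Hira-null. Such a gene, called a 1-group gene below, passed because it was high in 1 group and so had to differ, and its direction supports nothing about its list. Any gene under 1 FPKM in both day 15 libraries of 1 group that is said to rise or fall is of this kind. This holds also where its sentence does not say so. Each list's counts are therefore also given in parentheses without its 1-group genes, where it had any. Medians given outside parentheses include 1-group genes. Without them the median changed sign in the lists of gut tube (to 0.18), kidney (to 0.10), skeletal muscle (to 0.06) and eye and pigment cells (to -0.20). All list counts are to be read against the shares of all genes, 19.8% and 19.7%, which include 1-group genes. Leaving out a single WT library cut the calls to 1322 higher and 1270 lower without replicate 1, and to 1257 higher and 1356 lower without replicate 2. Where a gene whose change is given below lost its call without 1 library, the highest adjusted p of those refits is printed beside it, and where a count of 3 or more of a list moved by over 1.5 times, so is the count without that library.

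Genes on chromosomes 8 and 11 were lower as a body in the libraries labelled Hira-null, at both days. Among the 6980 genes at 5 FPKM or more in all 8 libraries and with a chromosome, the median log2 fold change at day 15 was -0.46 over the 420 genes of chromosome 8 and -0.38 over the 647 genes of chromosome 11. On chromosome 8, 91.9% of genes lay below 0, and on chromosome 11, 88.6%. The median over the other chromosomes together was 0.06, and singly they ran from -0.03 to 0.10. At day 0, before differentiation, the medians were -0.47 on chromosome 8 and -0.45 on chromosome 11, and the other chromosomes ran from -0.17 to 0.17. Each of the 4 pairings of a library labelled Hira-null with a WT library gave a median between -0.49 and -0.43 on chromosome 8 and between -0.41 and -0.36 on chromosome 11. Along each chromosome the shift was spread over its whole length, with every one of 8 consecutive blocks of genes at -0.52 to -0.38 on chromosome 8 and at -0.44 to -0.34 on chromosome 11.

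These 2 chromosomes carried 1793 of the day 15 genes (13.4%), of which 955 fell (53.3%) and 111 rose (6.19%). Of the 11331 genes on other chromosomes 1648 fell (14.5%) and 2480 rose (21.9%). Chromosomes 8 and 11 thus held 36.1% of all genes that fell and 28.5% of those that fell by 2-fold or more. The number of copies of these chromosomes was not tested in either line. A difference between the groups cannot show in which line the level is shifted. Because many marker genes lie on them, the counts of a gene list without chromosomes 8 and 11 are given wherever they differ in a way that matters. The 4 Y-linked genes measured, Ddx3y, Uty, Eif2s3y and Kdm5d, also fell (0 rose and 3 fell of the 3 that were not 1-group genes). Their summed level was 101 and 124 FPKM in WT and 57.4 and 48.1 FPKM in the libraries labelled Hira-null, and Eif2s3y and Kdm5d kept their calls without any 1 library while Ddx3y (adjusted p = 0.153 without WT replicate 2) and Uty (adjusted p = 0.0996 without WT replicate 2) did not.

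**Figure D1:**
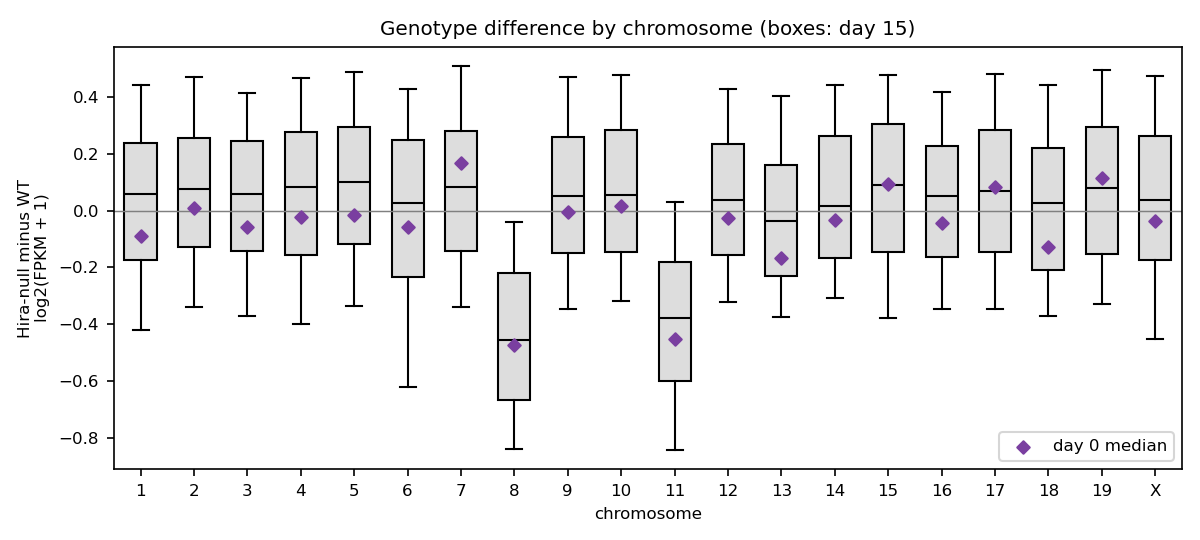
Log2 fold change of the libraries labelled Hira-null against WT by chromosome, for genes at 5 FPKM or more in all 8 libraries. Boxes span the quartiles of the day 15 differences around the median, whiskers run from the 10th to the 90th percentile, and diamonds mark day 0 medians. Chromosomes 8 and 11 sit below 0 at both days, with day 15 medians of -0.46 and -0.38, while the other medians stay between -0.03 and 0.10 at day 15.

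Over 32 lists of lineage markers, the summed FPKM of the erythroid list stood lowest against WT, followed by the lists of megakaryocytes and mast cells, endothelium, trophoblast, gut tube epithelium, macrophages, fibroblasts and visceral endoderm. At the other end stood the skeletal muscle list (3.09 times WT), then somite, limb and notochord (2.52). Next came the pan-neuronal, neural crest, glutamatergic, cartilage and neural progenitor lists. The somite, limb and notochord members had a median log2 fold change of 0.01, or 0.26 without 1-group genes. A few abundant genes can carry a sum. The neural crest list stood at 2.09 times WT, but its members had a median of -0.20. The gut tube list stood at 0.40 times WT, but its members that were not 1-group genes had a median of 0.18. The cardiomyocyte list stood inside that order. Its markers summed to 409.9 and 383 FPKM in WT and 290.0 and 288 FPKM in the libraries labelled Hira-null, and 4 of 26 measured members rose, 8 fell and 14 did not pass the test, with a median log2 fold change of -0.22 (3 rose and 8 fell of the 24 that were not 1-group genes). Myl7, the light chain of atrial and early embryonic heart muscle, fell from 68.9 and 64.9 to 12.4 and 11.9 FPKM (log2 -2.37 ± 0.11, adjusted p = 7.68e-06). Fabp3, which carries fatty acids in heart muscle, fell from 52.7 and 41.7 to 18.1 and 17.2 FPKM (log2 -1.36 ± 0.13, adjusted p = 1.60e-04). Actc1, cardiac actin, fell from 52.7 and 52.3 to 33.2 and 25.2 FPKM (log2 -0.84 ± 0.24, adjusted p = 0.0236), with a call lost without either WT library or without Hira-null replicate 2 (adjusted p = 0.174 without WT replicate 1). Tnnt2, cardiac troponin T, was at 38.9 and 40.96 FPKM in WT and 57.8 and 59.7 FPKM in those labelled Hira-null and did not pass the test (log2 0.55 ± 0.22, adjusted p = 0.0838). Casq1, a calcium store protein of striated muscle and a 1-group gene, rose from 0.850 and 0.911 to 3.89 and 3.64 FPKM (log2 1.34 ± 0.20, adjusted p = 0.00124). With 1 library left out the cardiomyocyte counts were smaller, since 2 rose without WT replicate 1, and 2 fell without WT replicate 1, 3 without WT replicate 2 and 5 without Hira-null replicate 2.

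**Figure D2:**
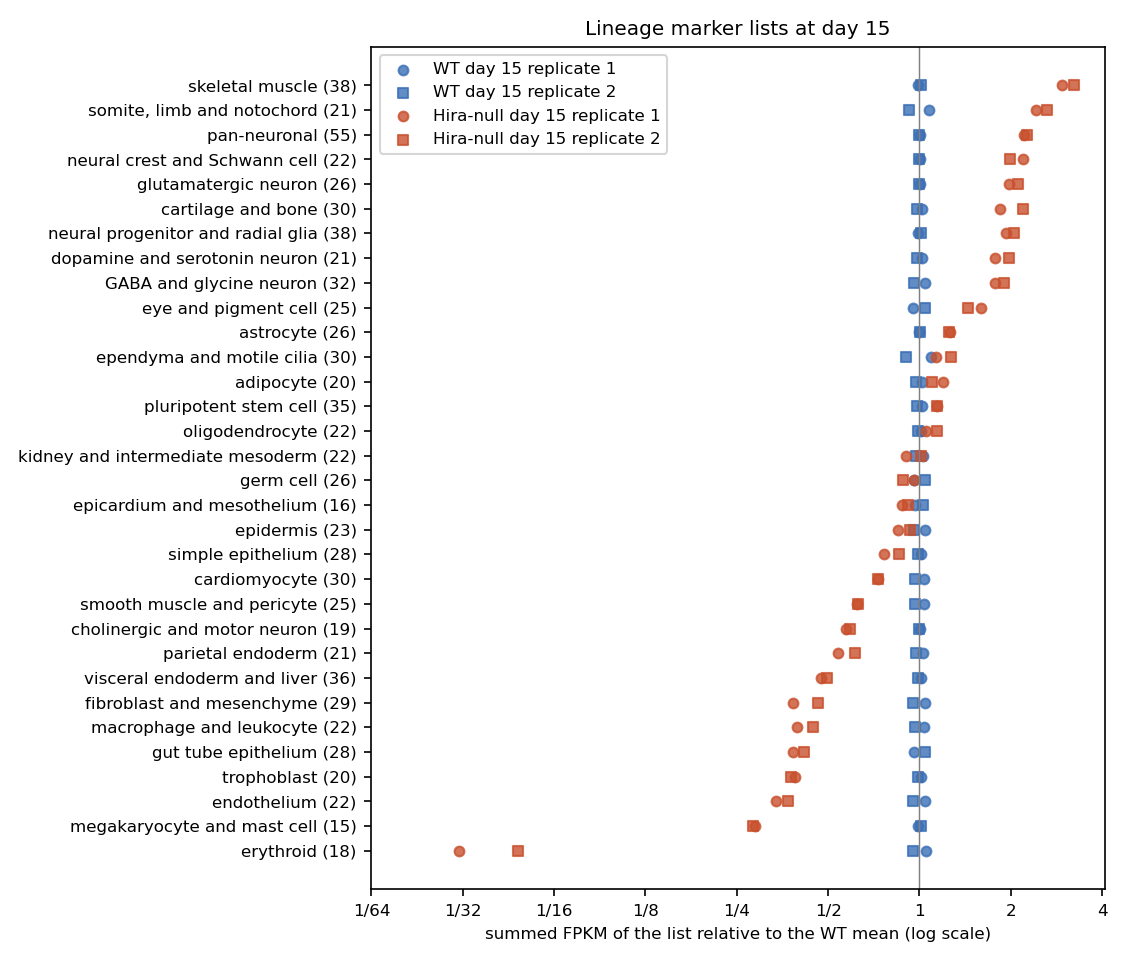
Summed FPKM of each lineage marker list in each of the 4 day 15 libraries, divided by the WT mean, on a log axis, with the number of genes matched in parentheses. Lists are ordered by the ratio of the libraries labelled Hira-null to WT, from skeletal muscle at 3.09, a sum carried by Car3, to erythroid at 0.0390.

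**Figure D3:**
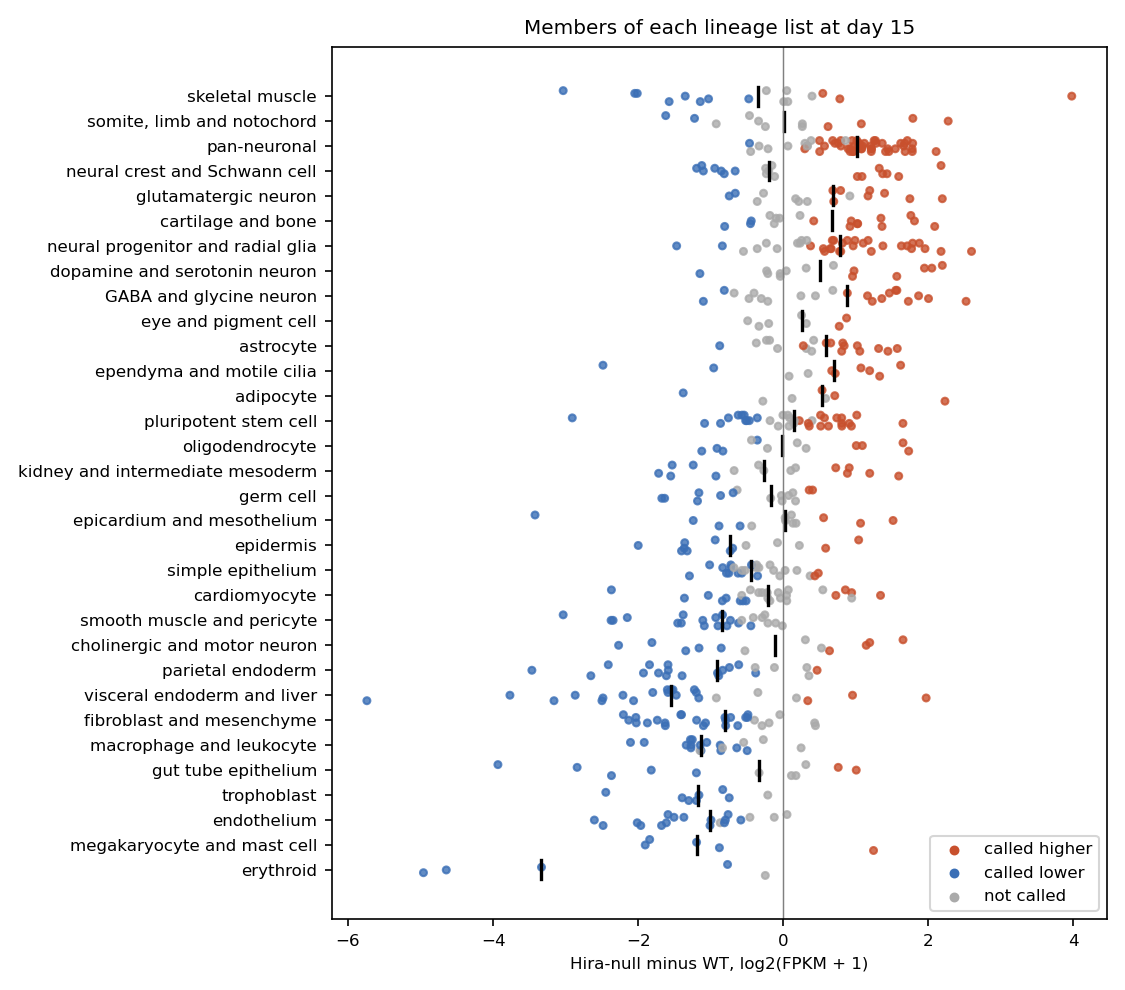
Log2 fold change at day 15 of each measured member of the same lists in the same order, coloured by call, with a bar at the median of each list. The pan-neuronal median is 1.02. The visceral endoderm median is -1.55, or -0.76 without its 1-group genes. Of the 16 skeletal muscle members 9 lie below 0, but 6 were 1-group genes that had to be lower. Without 1-group genes the skeletal muscle median is 0.06.

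In the fibroblast and mesenchyme list 0 of 27 measured members rose, 21 fell and 6 did not pass the test, with a median log2 fold change of -0.80 (0 rose and 21 fell of the 26 that were not 1-group genes). Its sum was 3167 and 2894 FPKM in WT and 1162 and 1403 FPKM in the libraries labelled Hira-null. Col1a1 and Col1a2 encode the chains of collagen I, the main fibrillar collagen of connective tissue. Col1a1 was at 1138 and 970.0 FPKM in WT and 244 and 336 FPKM in the libraries labelled Hira-null (log2 -1.87 ± 0.15, adjusted p = 7.56e-05). Col1a2 was at 380.3 and 345 FPKM in WT and 72.01 and 93.4 FPKM in those labelled Hira-null (log2 -2.13 ± 0.16, adjusted p = 5.31e-05). Col1a1 lies on chromosome 11, and without chromosomes 8 and 11 the list still had 18 of 24 genes that fell. Pdgfra, the growth factor receptor of early mesenchyme, fell from 25.5 and 26.6 to 6.01 and 5.24 FPKM (log2 -2.03 ± 0.13, adjusted p = 3.15e-05). The proteoglycan gene Lum fell from 36.7 and 42.2 to 7.25 and 8.30 FPKM (log2 -2.20 ± 0.23, adjusted p = 2.01e-04). Col3a1 fell less (from 495 and 468 to 255 and 333 FPKM, log2 -0.72 ± 0.19, adjusted p = 0.0168), and its call was lost without either WT library or without Hira-null replicate 1 (adjusted p = 0.16 without WT replicate 1). Bgn, a further proteoglycan of the matrix that was in no list, was the most abundant of the genes outside the lists that fell most, from 119 and 113 to 18.9 and 20.01 FPKM (log2 -2.52 ± 0.21, adjusted p = 8.67e-05).

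In the smooth muscle and pericyte list 0 of 23 measured members rose, 16 fell and 7 did not pass the test, with a median log2 fold change of -0.84 (0 rose and 15 fell of the 22 that were not 1-group genes). Acta2, smooth muscle actin, fell from 581 and 526 to 398 and 413 FPKM (log2 -0.45 ± 0.07, adjusted p = 0.00182). Tagln, which binds actin, fell from 443 and 406 to 262 and 250.1 FPKM (log2 -0.73 ± 0.08, adjusted p = 3.30e-04). Myh11, smooth muscle myosin, fell from 10.04 and 9.56 to 0.897 and 1.38 FPKM (log2 -2.35 ± 0.17, adjusted p = 5.27e-05). Cnn1, calponin, fell from 23.3 and 19.97 to 2.43 and 4.55 FPKM (log2 -2.37 ± 0.25, adjusted p = 2.12e-04). Des, the intermediate filament protein of muscle, fell from 24.8 and 25.8 to 1.61 and 2.95 FPKM (log2 -3.03 ± 0.19, adjusted p = 2.82e-05). Actg2, the actin of gut muscle, fell from 136 and 137 to 53.3 and 48.5 FPKM (log2 -1.40 ± 0.19, adjusted p = 8.03e-04). In none of these did a library labelled Hira-null reach a WT library, which held for 100% of called genes and so adds nothing to the calls.

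Of the 37 measured genes of the matrix-remodelling list, 8 rose (21.6%, against 19.8% of all genes) and 14 fell (37.8%, against 19.7%), 8 rose and 14 fell of the 36 that were not 1-group genes, and 1 library carried part of this, since 5 rose without WT replicate 1 and 4 without WT replicate 2, and 7 fell without WT replicate 1, 8 without WT replicate 2 and 9 without Hira-null replicate 1. Serpine2, a protease inhibitor of the nervous system, rose from 80.3 and 82.3 to 209 and 201 FPKM (log2 1.33 ± 0.10, adjusted p = 5.57e-05), whereas Timp1, an inhibitor of matrix metalloproteases, fell from 31.7 and 31.1 to 7.94 and 6.96 FPKM (log2 -1.94 ± 0.09, adjusted p = 7.68e-06). Its relative Timp2 rose from 58.02 and 58.03 to 85.6 and 88.96 FPKM (log2 0.58 ± 0.14, adjusted p = 0.0128), a call lost without a WT library (adjusted p = 0.122 without WT replicate 2). Mmp2, a gelatinase, fell from 155 and 156 to 95.2 and 92.8 FPKM (log2 -0.72 ± 0.09, adjusted p = 4.82e-04). Adamts2, which trims procollagen, fell from 18.2 and 16.3 to 4.57 and 5.42 FPKM (log2 -1.60 ± 0.17, adjusted p = 1.99e-04). Mmp2 lies on chromosome 8 and Adamts2 on chromosome 11. In the integrin list 4 of 34 measured members rose, 10 fell and 20 did not pass the test, with a median log2 fold change of -0.06 (4 rose and 9 fell of the 33 that were not 1-group genes), and 1 rose without WT replicate 2. Outside chromosomes 8 and 11, 4 of 30 integrin list members rose and 7 fell, with a median of 0.01. Itga4, the integrin subunit that binds fibronectin and VCAM1, fell from 5.47 and 6.95 to 1.29 and 0.855 FPKM (log2 -1.80 ± 0.19, adjusted p = 2.15e-04). Itgb8, a subunit that activates TGF-beta, rose from 6.38 and 4.99 to 14.2 and 12.7 FPKM (log2 1.12 ± 0.17, adjusted p = 0.00124).

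Embryonic globin RNA was not detected in the libraries labelled Hira-null. The embryonic globin genes Hba-x, Hbb-bh1 and Hbb-y are made by the first red cells of the yolk sac. In WT, Hba-x was at 30.3 and 30.0 FPKM. Hbb-bh1 was at 26.6 and 21.7 FPKM and Hbb-y at 10.5 and 7.86 FPKM. All 3 were listed at 0 in both of the Hira-null label (adjusted p = 2.30e-06, 2.61e-06 and 1.35e-05, limma). Against the level that 3 fragments would give, Hbb-y was at least 17.4-fold lower. The 3 genes encode both kinds of chain of embryonic haemoglobin, and of them Hba-x lies on chromosome 11. With Tal1, a factor of blood and vessel progenitors named after its values were seen, 4 of the 5 measured erythroid genes fell, but all 4 were 1-group genes, so their count says nothing of the list. Tal1 went from 1.34 and 1.42 to 0.158 and 0.688 FPKM (log2 -0.77 ± 0.21, adjusted p = 0.0207, adjusted p = 0.112 without WT replicate 2).

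In the macrophage and leukocyte list 0 of 19 measured members rose, 14 fell and 5 did not pass the test, with a median log2 fold change of -1.13 (0 rose and 10 fell of the 15 that were not 1-group genes), and 9 fell without WT replicate 1. Tyrobp, an adaptor of myeloid receptors, fell from 14.8 and 14.02 to 2.97 and 2.23 FPKM (log2 -2.11 ± 0.36, adjusted p = 0.00215). C1qc, a chain of complement C1q made by macrophages, fell from 12.3 and 10.4 to 2.34 and 2.19 FPKM (log2 -1.92 ± 0.16, adjusted p = 8.95e-05). Lyz2, the lysozyme of macrophages, was at 31.1 and 29.1 FPKM in WT and 11.3 and 15.1 FPKM in those labelled Hira-null without passing the test (log2 -1.15 ± 0.79, adjusted p = 0.289). Plek, a protein kinase C substrate of platelets and leukocytes on chromosome 11, fell from 3.71 and 5.24 to 0.518 and 0.510 FPKM (log2 -1.84 ± 0.18, adjusted p = 1.63e-04). Pf4, platelet factor 4, fell from 2.35 and 3.19 to 0.191 and 1.25 FPKM (log2 -1.19 ± 0.29, adjusted p = 0.0115) with a call lost without a WT library (adjusted p = 0.106 without WT replicate 2). Kit, a receptor of mast cells, blood progenitors and other lineages, fell from 27.5 and 25.9 to 6.95 and 5.88 FPKM (log2 -1.90 ± 0.10, adjusted p = 1.12e-05). Over the megakaryocyte and mast cell list 1 of 5 measured members rose, 4 fell and 0 did not pass the test, with a median log2 fold change of -1.19 (0 rose and 2 fell of the 2 that were not 1-group genes), and 2 fell without WT replicate 2. Among complement and coagulation genes 0 of 22 measured members rose, 14 fell and 8 did not pass the test, with a median log2 fold change of -0.87 (0 rose and 8 fell of the 16 that were not 1-group genes). Tfpi, the inhibitor of the tissue factor pathway, fell from 11.2 and 12.2 to 2.46 and 2.61 FPKM (log2 -1.84 ± 0.14, adjusted p = 6.70e-05).

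In the endothelial list 0 of 19 measured members rose, 15 fell and 4 did not pass the test, with a median log2 fold change of -1.01 (0 rose and 8 fell of the 11 that were not 1-group genes), and 9 of the 13 outside chromosomes 8 and 11 fell. The receptors differed among themselves. Kdr, the VEGF receptor of vessels and of early mesoderm, was at 6.74 and 6.83 FPKM in WT and 7.23 and 6.92 FPKM in those labelled Hira-null (log2 0.05 ± 0.15, adjusted p = 0.812). The angiopoietin receptor gene Tek fell from 2.55 and 2.85 to 1.53 and 1.41 FPKM (log2 -0.58 ± 0.15, adjusted p = 0.0162, adjusted p = 0.139 without WT replicate 2). Eng, endoglin, fell from 11.8 and 10.7 to 6.69 and 5.79 FPKM (log2 -0.76 ± 0.13, adjusted p = 0.00223). Plvap, which forms the diaphragms of capillary pores and lies on chromosome 8, fell from 4.42 and 5.04 to 0.278 and 0.573 FPKM (log2 -2.01 ± 0.24, adjusted p = 3.97e-04). Eng went the other way at day 0, at 7.61 and 8.81 FPKM in WT and 17.1 and 19.2 FPKM in the libraries labelled Hira-null (log2 1.06, adjusted p = 3.31e-04).

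In the visceral endoderm and liver list 3 of 23 measured members rose, 17 fell and 3 did not pass the test, with a median log2 fold change of -1.55. Of the 10 that were not 1-group genes 3 rose and 5 fell, with a median of -0.76. All 17 that fell did so by 2-fold or more, but 12 of them were 1-group genes, which had to be lower. Apob, Afp and Fgb below were such 1-group genes. Rbp4 and Ttr carry vitamin A and thyroid hormone, and Apob is the core protein of lipoprotein particles. Apob fell from 13.6 and 13.1 to 0.726 and 0.483 FPKM (log2 -3.16 ± 0.16, adjusted p = 1.10e-05). Ttr fell from 17.8 and 17.1 to 2.11 and 2.50 FPKM (log2 -2.48 ± 0.20, adjusted p = 7.35e-05). Rbp4 fell from 23.98 and 21.5 to 2.08 and 2.43 FPKM (log2 -2.87 ± 0.18, adjusted p = 2.79e-05). Afp, alpha-fetoprotein, was at 54.4 and 56.1 FPKM in WT and 0.108 and 0 FPKM in those labelled Hira-null (log2 -5.74 ± 0.29, adjusted p = 1.10e-05). At day 0 Afp stood the other way, at 0.0651 and 0.0567 FPKM in WT and 2.93 and 0.928 FPKM in the libraries labelled Hira-null (log2 1.38, adjusted p = 0.00508). Fgb, the beta chain of fibrinogen, was at 3.10 and 3.26 FPKM in WT and listed at 0 in both of the Hira-null label (adjusted p = 6.82e-05), at least 15.3-fold lower at a limit of 3 fragments. Dab2, an endocytic adaptor of visceral endoderm, was at 30.4 and 29.1 FPKM in WT and 23.6 and 22.7 FPKM in those labelled Hira-null (log2 -0.35 ± 0.12, adjusted p = 0.0548). The 3 genes of the list that rose were Foxa1, Foxa2 and Lrp2, the first 2 of which are pioneer transcription factors that endoderm shares with the floor plate of the neural tube, and Lrp2, named after its values were seen, is an endocytic receptor of endoderm and of the neural tube. Lrp2 rose from 11.8 and 10.4 to 14.1 and 14.5 FPKM (log2 0.34 ± 0.11, adjusted p = 0.0396) and lost the call without any 1 library (adjusted p = 0.256 without WT replicate 2).

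The promoters of this list were read because liver-type genes share known regulators. HNF1 factors bind such promoters, and the core of their motif, GTTAAT, was searched on both strands in the window from 250 bases before to 50 after the RefSeq start of each gene (GRCm38.p6). Of the 19 members whose promoter RefSeq gave, 6 held it (31.6%), 4 of the 13 that fell, against 8.24% of all 27025 promoters. The genes were Afp, Dab2, F2, Fgb, Foxa2 and Hnf4a. A match is a run of letters and not a known binding site. The 250 bases before the start are printed for 3 genes that fell and for Foxa2, which rose, with the matches in capitals (ATTAAC is the same core on the other strand).
Afp promoter, chr5:90490464-90490713, plus strand: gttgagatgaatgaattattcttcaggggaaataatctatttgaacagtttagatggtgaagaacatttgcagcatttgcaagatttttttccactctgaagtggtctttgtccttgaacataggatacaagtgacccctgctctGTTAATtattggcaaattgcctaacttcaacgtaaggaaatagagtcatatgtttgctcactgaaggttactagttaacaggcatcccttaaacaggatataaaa
Fgb promoter, chr3:83049864-83050113, minus strand: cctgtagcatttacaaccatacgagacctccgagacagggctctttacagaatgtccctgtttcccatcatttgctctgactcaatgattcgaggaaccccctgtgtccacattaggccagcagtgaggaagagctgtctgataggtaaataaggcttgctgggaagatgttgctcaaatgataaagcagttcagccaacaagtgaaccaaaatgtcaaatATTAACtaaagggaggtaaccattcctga
Hnf4a promoter, chr2:163546905-163547154, plus strand: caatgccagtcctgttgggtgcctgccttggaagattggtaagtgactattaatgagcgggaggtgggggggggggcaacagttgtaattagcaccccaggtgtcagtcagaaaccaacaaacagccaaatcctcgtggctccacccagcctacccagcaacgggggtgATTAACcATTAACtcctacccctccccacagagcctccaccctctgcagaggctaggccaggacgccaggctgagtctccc
Foxa2 promoter, chr2:148045465-148045714, minus strand: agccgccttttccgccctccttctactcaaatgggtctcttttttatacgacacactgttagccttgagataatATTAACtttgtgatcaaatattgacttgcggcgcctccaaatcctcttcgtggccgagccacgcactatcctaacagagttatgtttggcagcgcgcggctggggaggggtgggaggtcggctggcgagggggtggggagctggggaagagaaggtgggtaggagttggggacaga
The match began 105 bases before the start in Afp, 29 in Fgb, 176 in Foxa2, and 81 and 74 in Hnf4a, the gene of a liver and gut transcription factor. Hnf4a, a 1-group gene chosen here for its promoter after its values were seen, fell from 2.51 and 2.29 to 0.232 and 0.0241 FPKM (log2 -1.60 ± 0.19, adjusted p = 3.87e-04). The motif was thus in the promoter of a gene that rose as well as of genes that fell. The corresponding search in the smooth muscle list was for the CArG box that serum response factor binds (CC, then 6 letters that are each A or T, then GG). It was in 1 of 18 promoters (5.56%), that of Filip1l, and in 1.81% of all 27025. Of the 12 members that fell and had a promoter, 0 held it.

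In the parietal endoderm list, of cells that lay down the thick basement membrane of the yolk sac, 1 of 21 measured members rose, 16 fell and 4 did not pass the test, with a median log2 fold change of -0.91 (1 rose and 13 fell of the 18 that were not 1-group genes). Its most abundant genes encode matrix that other cells make too. Col4a1, a chain of basement membrane collagen on chromosome 8, fell from 548 and 503 to 133 and 189.8 FPKM (log2 -1.72 ± 0.14, adjusted p = 7.35e-05). Lama1, a laminin chain of the early embryo, fell from 64.8 and 60.5 to 15.4 and 16.04 FPKM (log2 -1.93 ± 0.08, adjusted p = 3.15e-06). Serpinh1, the collagen chaperone, did not pass the test (361 and 341 FPKM in WT and 299 and 349 FPKM in those labelled Hira-null, log2 -0.12 ± 0.08, adjusted p = 0.268). In the gut tube list 2 of 11 measured members rose, 5 fell and 4 did not pass the test, with a median log2 fold change of -0.33. Of the 7 that were not 1-group genes 2 rose and 1 fell, with a median of 0.18. Gkn1 and Gkn2, secreted proteins of stomach lining, were at 6.79 and 5.60 FPKM and at 18.3 and 11.1 FPKM in WT, and both were listed at 0 in the libraries labelled Hira-null. Spink1, a trypsin inhibitor of gut and pancreas, fell from 22.9 and 38.4 to 4.26 and 5.73 FPKM (log2 -2.37 ± 0.42, adjusted p = 0.00264) and lost the call without 1 library (adjusted p = 0.0671 without WT replicate 2). Pga5, a pepsinogen of the stomach that was in no list, fell from 25.7 and 19.8 to 1.43 and 1.34 FPKM (log2 -3.31 ± 0.17, adjusted p = 1.12e-05). The cysteine protease Ctsh, also in no list, fell from 12.03 and 12.1 to 1.52 and 0.712 FPKM (log2 -2.65 ± 0.34, adjusted p = 5.47e-04). Foxp2, a transcription factor of lung epithelium and of neurons, rose from 4.05 and 3.87 to 9.28 and 8.68 FPKM (log2 1.01 ± 0.15, adjusted p = 0.0011).

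The transcription factors below were brought together after their values were seen, so their shared direction is no result. Gata4 fell from 23.1 and 20.5 to 2.94 and 3.65 FPKM (log2 -2.41 ± 0.14, adjusted p = 1.56e-05). Gata6 fell from 28.05 and 23.5 to 3.79 and 2.76 FPKM (log2 -2.65 ± 0.17, adjusted p = 2.82e-05). Both are made in extraembryonic endoderm as well as in heart, and both sat in the parietal endoderm list. Hand1 and Hand2 are basic helix-loop-helix factors of lateral mesoderm and heart, on chromosomes 11 and 8. Hand1 fell from 17.8 and 17.6 to 2.13 and 2.77 FPKM (log2 -2.45 ± 0.13, adjusted p = 1.12e-05). Hand2 fell from 37.8 and 34.8 to 7.03 and 6.44 FPKM (log2 -2.27 ± 0.16, adjusted p = 5.06e-05). Isl1, of the second heart field and of motor neurons, fell from 8.66 and 10.1 to 1.56 and 2.41 FPKM (log2 -1.81 ± 0.19, adjusted p = 1.97e-04). Tbx20, a T-box factor of both heart and motor neurons, fell from 12.1 and 14.7 to 5.96 and 4.91 FPKM (log2 -1.16 ± 0.19, adjusted p = 0.00161). The epicardial factor Tcf21 had the steepest fall of its list, from 18.9 and 20.2 to 1.19 and 0.685 FPKM (log2 -3.42 ± 0.17, adjusted p = 1.10e-05). Wt1, of epicardium and kidney, fell from 5.32 and 5.24 to 1.996 and 1.36 FPKM (log2 -1.24 ± 0.18, adjusted p = 0.00109). Other genes of the epicardium and mesothelium list differed in direction. Outside chromosomes 8 and 11 this list had 2 genes that rose and 4 that fell of 10, with a median log2 fold change of -0.20. Gpm6a, a membrane protein of neurons as well as of mesothelium, rose from 4.06 and 4.95 to 15.2 and 14.2 FPKM (log2 1.52 ± 0.16, adjusted p = 2.01e-04). Krt19 was at 48.3 and 51.2 FPKM in WT and 46.2 and 55.5 FPKM in those labelled Hira-null (log2 0.03 ± 0.10, adjusted p = 0.851), and over the whole list 3 of 13 measured members rose, 4 fell and 6 did not pass the test, with a median log2 fold change of 0.03 (2 rose and 3 fell of the 11 that were not 1-group genes), while 1 rose without WT replicate 1 and 1 without WT replicate 2.

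In the list of neural progenitors and radial glia 25 of 35 measured members rose, 2 fell and 8 did not pass the test, with a median log2 fold change of 0.78 (24 rose and 2 fell of the 34 that were not 1-group genes), and 16 rose without WT replicate 1. In the pan-neuronal list 44 of 54 measured members rose, 1 fell and 9 did not pass the test, with a median log2 fold change of 1.02 (41 rose and 1 fell of the 51 that were not 1-group genes). The progenitor list summed to 561 and 569.7 FPKM in WT and 1089.7 and 1162 FPKM in the libraries labelled Hira-null. The pan-neuronal list summed to 494 and 491 FPKM in WT and 1085 and 1116 FPKM in the libraries labelled Hira-null. Zic1, a zinc finger factor of the dorsal neural tube, rose most of the progenitor list, from 4.25 and 5.502 to 31.8 and 37.1 FPKM (log2 2.60 ± 0.16, adjusted p = 2.82e-05). Ptprz1, a phosphatase of radial glia, rose from 2.45 and 3.07 to 13.7 and 13.3 FPKM (log2 1.96 ± 0.16, adjusted p = 8.16e-05). Sox2, kept by neural progenitors as well as by stem cells, rose from 69.1 and 74.1 to 105 and 106 FPKM (log2 0.55 ± 0.07, adjusted p = 5.23e-04). Pax6, a factor of forebrain and spinal cord progenitors, was low in all 4 libraries (0.981 and 1.76 FPKM in WT and 1.70 and 1.88 FPKM in those labelled Hira-null) and did not pass the test (log2 0.25 ± 0.19, adjusted p = 0.341).

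Among neuronal genes, Uchl1, a deubiquitinase abundant in neurons, rose from 49.8 and 45.9 to 166 and 169 FPKM (log2 1.79 ± 0.07, adjusted p = 3.15e-06). Stmn4, a tubulin-binding protein, rose from 6.29 and 7.13 to 33.5 and 30.95 FPKM (log2 2.11 ± 0.17, adjusted p = 7.86e-05). Syt1, the calcium sensor of synaptic vesicles, rose from 1.59 and 1.95 to 8.34 and 8.63 FPKM (log2 1.78 ± 0.18, adjusted p = 2.01e-04). Voltage-gated channels carry the electrical signals of neurons. Of their genes 18 of 32 measured members rose, 0 fell and 14 did not pass the test, with a median log2 fold change of 0.55 (11 rose and 0 fell of the 24 that were not 1-group genes), and 8 rose without WT replicate 1 and 10 without WT replicate 2. The sodium channel gene Scn3a, of embryonic brain, rose from 1.78 and 1.79 to 6.94 and 5.42 FPKM (log2 1.36 ± 0.18, adjusted p = 7.07e-04). The fast potassium channel gene Kcnc1 rose from 0.474 and 0.453 to 2.79 and 2.91 FPKM (log2 1.40 ± 0.16, adjusted p = 3.00e-04). Of the synaptic receptor genes 12 of 22 measured members rose, 2 fell and 8 did not pass the test, with a median log2 fold change of 0.65 (7 rose and 0 fell of the 15 that were not 1-group genes), and 7 rose without WT replicate 2. Gabra2, a GABA receptor subunit, was at or near 0 in WT, a 1-group gene, and rose from 0 and 0.214 to 4.04 and 3.16 FPKM (log2 2.05 ± 0.18, adjusted p = 1.02e-04).

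In the GABA and glycine list 11 of 21 measured members rose, 2 fell and 8 did not pass the test, with a median log2 fold change of 0.88 (9 rose and 1 fell of the 18 that were not 1-group genes). Dlx1, of the ventral forebrain, rose from 0.878 and 0.829 to 6.99 and 4.73 FPKM (log2 1.87 ± 0.19, adjusted p = 2.09e-04). Gad1, which makes GABA, rose from 0.723 and 1.21 to 3.33 and 3.41 FPKM (log2 1.16 ± 0.17, adjusted p = 0.00119). In the glutamatergic list 8 of 16 measured members rose, 2 fell and 6 did not pass the test, with a median log2 fold change of 0.69 (5 rose and 1 fell of the 12 that were not 1-group genes), and 5 rose without WT replicate 2. Slc17a6, the vesicular glutamate transporter, rose from 2.11 and 1.68 to 7.38 and 4.21 FPKM (log2 1.19 ± 0.23, adjusted p = 0.00405, adjusted p = 0.0509 without WT replicate 2). The list of dopamine and serotonin neurons held 6 genes that rose and 1 that fell of 14 (6 rose and 1 fell of the 13 that were not 1-group genes). The 6 that rose, Lmx1a, Lmx1b, En1, En2, Nr4a2 and Foxa2, are transcription factors of midbrain progenitors and neurons, and En1, named after its values were seen, lost its call without a WT library (adjusted p = 0.0656 without WT replicate 1). Th, which makes the precursor of dopamine, reached 1 FPKM in only 1 library (0.604 and 1.46 FPKM in WT and 0.319 and 0.538 FPKM in those labelled Hira-null). Ddc, the next enzyme, on chromosome 11, fell from 9.55 and 9.68 to 4.19 and 3.42 FPKM (log2 -1.15 ± 0.15, adjusted p = 5.05e-04). In the cholinergic list 4 genes rose and 5 fell of 12. Slc5a7, the choline transporter of cholinergic terminals, fell from 3.89 and 4.93 to 1.19 and 1.05 FPKM (log2 -1.34 ± 0.17, adjusted p = 4.82e-04). Prph, a filament of peripheral neurons, rose from 3.64 and 4.99 to 9.93 and 11.4 FPKM (log2 1.14 ± 0.15, adjusted p = 5.53e-04).

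Of the astrocyte list 11 of 19 measured members rose, 1 fell and 7 did not pass the test, with a median log2 fold change of 0.59 (8 rose and 1 fell of the 16 that were not 1-group genes), and 7 rose without WT replicate 1. Slc1a2, a glutamate transporter, rose from 1.54 and 1.78 to 6.93 and 6.89 FPKM (log2 1.57 ± 0.16, adjusted p = 1.81e-04). Fgfr3, a receptor of glial progenitors, rose from 8.16 and 7.97 to 22.3 and 25.1 FPKM (log2 1.44 ± 0.13, adjusted p = 9.69e-05). Gfap, the filament of mature astrocytes, was at 0.104 and 0.0210 FPKM in WT and 0.0551 and 0.155 FPKM in those labelled Hira-null. Of the oligodendrocyte list 4 rose and 4 fell of 12 (2 rose and 2 fell of the 8 that were not 1-group genes), and 2 fell without WT replicate 2. Olig2, of motor neuron and oligodendrocyte progenitors, rose from 1.26 and 0.350 to 3.82 and 5.26 FPKM (log2 1.65 ± 0.25, adjusted p = 0.0013), but Sox10, of oligodendrocytes and neural crest, fell from 1.17 and 1.64 to 0.0827 and 0.116 FPKM (log2 -1.12 ± 0.19, adjusted p = 0.00203). Of the eye and pigment cell list 2 of 7 measured members rose, 0 fell and 5 did not pass the test, with a median log2 fold change of 0.25. Of the 5 that were not 1-group genes 1 rose and 0 fell, with a median of -0.20. Otx2, a factor of forebrain and eye, rose from 15.8 and 16.9 to 33.5 and 28.3 FPKM (log2 0.87 ± 0.12, adjusted p = 8.03e-04). The neural crest list had 7 genes that rose and 7 that fell of 19 (6 rose and 5 fell of the 16 that were not 1-group genes). Cdh6, a cadherin of crest and kidney, rose from 9.68 and 8.72 to 27.8 and 31.9 FPKM (log2 1.59 ± 0.14, adjusted p = 9.78e-05). Erbb3, a neuregulin receptor of Schwann cell precursors, fell from 7.499 and 6.62 to 3.99 and 4.18 FPKM (log2 -0.66 ± 0.11, adjusted p = 0.00242). Both went the other way at day 0, Cdh6 at 2.84 and 3.06 FPKM in WT and 0.0553 and 0 FPKM in the libraries labelled Hira-null (log2 -1.94, adjusted p = 3.01e-05) and Erbb3 at 9.90 and 9.51 FPKM in WT and 21.04 and 19.96 FPKM in the libraries labelled Hira-null (log2 1.01, adjusted p = 2.40e-04).

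The genes of the floor plate and notochord below come from the hedgehog, dopamine neuron, endoderm and notochord lists and were brought together after their values were seen, so their shared direction is no result. The floor plate is the ventral midline of the neural tube, which makes sonic hedgehog and netrin, and its hedgehog signal sets ventral fates. Shh (mm9 chr5:28783355-28793641, minus strand) was at 19.2 and 17.6 FPKM in WT and 89.8 and 95.8 FPKM in the libraries labelled Hira-null (log2 2.28 ± 0.13, adjusted p = 1.51e-05). It was listed at 0 in all 4 day 0 libraries. Foxa1 rose from 10.3 and 9.32 to 40.2 and 42.4 FPKM (log2 1.97 ± 0.17, adjusted p = 9.03e-05). Foxa2 rose from 12.4 and 11.4 to 23.01 and 25.001 FPKM (log2 0.96 ± 0.13, adjusted p = 8.09e-04). The notochord and primitive streak factor T, brachyury, rose from 14.6 and 13.3 to 51.01 and 50.4 FPKM (log2 1.79 ± 0.19, adjusted p = 2.49e-04). Lmx1a and Lmx1b, LIM homeodomain factors of the dorsal midline and of the midbrain floor plate, rose from 6.20 and 6.19 to 26.6 and 26.9 FPKM (log2 1.95 ± 0.15, adjusted p = 6.96e-05) and from 5.05 and 4.76 to 21.7 and 31.1 FPKM (log2 2.19 ± 0.21, adjusted p = 1.36e-04). Nkx2-2 and Nkx6-1, which hedgehog signals induce in the ventral neural tube, rose from 2.51 and 2.51 to 9.72 and 11.7 FPKM (log2 1.73 ± 0.17, adjusted p = 1.56e-04) and from 6.03 and 4.04 to 14.9 and 20.4 FPKM (log2 1.63 ± 0.22, adjusted p = 6.72e-04).

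Over the hedgehog list as a whole 6 of 18 measured members rose, 6 fell and 6 did not pass the test, with a median log2 fold change of 0.17 (6 rose and 4 fell of the 16 that were not 1-group genes). The receptor gene Ptch1, itself a target of the pathway, rose from 48.99 and 44.1 to 69.3 and 70.1 FPKM (log2 0.58 ± 0.10, adjusted p = 0.00315, adjusted p = 0.0584 without WT replicate 2), while the transducer Smo was at 31.5 and 25.96 FPKM in WT and 27.7 and 34.8 FPKM in those labelled Hira-null (log2 0.12 ± 0.13, adjusted p = 0.513). The 6 genes that fell were Gli2, Gli3, Gas1, Boc, Hhat and Ihh, named after their values were seen, of which Gli2 (adjusted p = 0.16 without WT replicate 1) and Ihh (adjusted p = 0.147 without WT replicate 1) lost their calls without 1 library, and among which Gas1, a co-receptor, had the largest fall (from 27.6 and 27.4 to 6.52 and 10.97 FPKM, log2 -1.59 ± 0.21, adjusted p = 6.25e-04). Gli3 encodes the main repressor of the pathway and fell from 16.5 and 15.6 to 8.84 and 8.23 FPKM (log2 -0.84 ± 0.13, adjusted p = 0.00142). Genes of this pathway thus did not share a direction.

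Of the semaphorin, ephrin, netrin and slit list 21 of 59 measured members rose, 8 fell and 30 did not pass the test, with a median log2 fold change of 0.26 (20 rose and 8 fell of the 57 that were not 1-group genes). The share that rose was 35.6% and the share that fell 13.6%, against 19.8% and 19.7% of all genes, and 4 fell without WT replicate 1 and 5 without WT replicate 2. Ntn1, the netrin of the floor plate (mm9 chr11:68022866-68214325, minus strand), was at 46.2 and 40.3 FPKM in WT and 250.4 and 274 FPKM in the libraries labelled Hira-null (log2 2.57 ± 0.18, adjusted p = 4.18e-05). It lies on chromosome 11, where most genes fell, and at day 0 it stood the other way, at 15.9 and 17.9 FPKM in WT and 1.47 and 2.72 FPKM in the libraries labelled Hira-null (log2 -2.56, adjusted p = 2.61e-05). Its receptors parted. Unc5c, which mediates repulsion from netrin, fell from 16.1 and 17.1 to 4.10 and 4.04 FPKM (log2 -1.79 ± 0.15, adjusted p = 7.56e-05). Dcc, which mediates attraction and was chosen after its values were seen, rose from 3.29 and 4.28 to 15.6 and 14.3 FPKM (log2 1.74 ± 0.16, adjusted p = 1.31e-04). Slit2, the midline repellent, rose from 35.6 and 33.7 to 104 and 103 FPKM (log2 1.55 ± 0.12, adjusted p = 6.83e-05). The ephrin receptor gene Ephb1 rose from 2.27 and 1.66 to 9.33 and 9.05 FPKM (log2 1.79 ± 0.19, adjusted p = 2.26e-04).

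**Figure D4:**
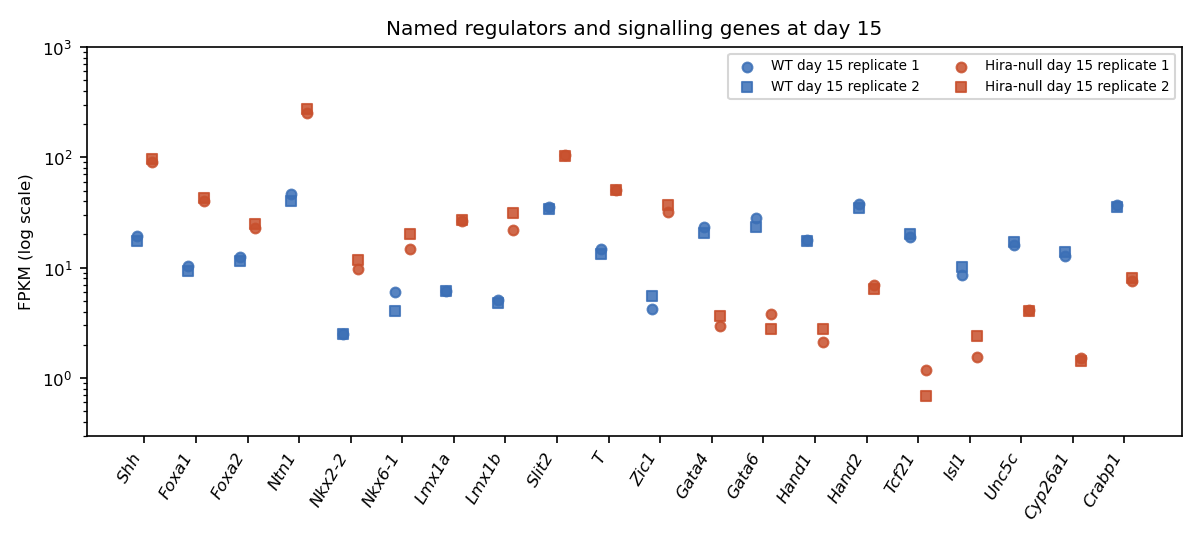
FPKM on a log axis of 20 regulators and signalling genes in the 4 day 15 libraries. The 11 genes from Shh to Zic1 are higher in both libraries labelled Hira-null than in either WT library, and the 9 from Gata4 to Crabp1 are lower in both. All 20 passed the test, and the groups did not overlap in 100% of called genes, so this separation is no result. The floor plate genes and the heart factors among them were brought together after their values were seen.

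Of the WNT list 16 of 50 measured members rose, 10 fell and 24 did not pass the test, with a median log2 fold change of 0.13 (14 rose and 8 fell of the 46 that were not 1-group genes), and 9 rose without WT replicate 1 and 9 without WT replicate 2. Its share that fell, 10 of 50, was close to the 19.7% of all genes. Rspo2, which amplifies WNT signals, rose from 2.32 and 1.33 to 16.9 and 13.2 FPKM (log2 2.52 ± 0.21, adjusted p = 8.13e-05). Wnt7b, a ligand of forebrain and lung, rose from 2.91 and 2.80 to 13.1 and 12.9 FPKM (log2 1.86 ± 0.13, adjusted p = 5.08e-05). The secreted inhibitors split, since Wif1 rose from 2.41 and 1.45 to 21.02 and 19.96 FPKM (log2 2.89 ± 0.20, adjusted p = 4.75e-05). Sfrp1, on chromosome 8, fell from 60.1 and 57.5 to 25.5 and 22.04 FPKM (log2 -1.27 ± 0.09, adjusted p = 5.08e-05). The frizzled receptors Fzd7 and Fzd2 were at 46.8 and 44.5 FPKM in WT and 35.01 and 37.2 FPKM in those labelled Hira-null and at 39.6 and 37.7 FPKM in WT and 25.6 and 28.6 FPKM in those labelled Hira-null, and neither passed the test (adjusted p = 0.0602 and 0.0626).

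Of the BMP and TGF-beta list 16 of 47 measured members rose, 7 fell and 24 did not pass the test, with a median log2 fold change of 0.18 (16 rose and 6 fell of the 46 that were not 1-group genes), and 8 rose without WT replicate 1 and 8 without WT replicate 2. The ligand gene Bmp7 rose from 6.65 and 6.19 to 19.97 and 25.2 FPKM (log2 1.66 ± 0.15, adjusted p = 1.00e-04). Bmp3 rose from 1.23 and 1.23 to 7.10 and 6.31 FPKM (log2 1.79 ± 0.16, adjusted p = 1.08e-04). Id3, a target that BMP signals induce, rose from 106 and 96.3 to 235 and 282 FPKM (log2 1.34 ± 0.12, adjusted p = 9.46e-05). Its relative Id1 rose less, from 68.5 and 68.3 to 85.7 and 91.3 FPKM (log2 0.37 ± 0.07, adjusted p = 0.00456). At day 0 Id3 was lower in the libraries labelled Hira-null, at 34.2 and 29.4 FPKM in WT and 23.1 and 20.4 FPKM in the libraries labelled Hira-null (log2 -0.53, adjusted p = 0.00595). Of the Notch list 10 genes rose and 4 fell of 26 (10 rose and 2 fell of the 24 that were not 1-group genes), and 4 rose without WT replicate 1, 4 without WT replicate 2 and 6 without Hira-null replicate 2. Dner, a ligand of neurons, rose from 2.48 and 2.30 to 7.76 and 6.25 FPKM (log2 1.23 ± 0.20, adjusted p = 0.00158). Heyl, a target in vascular smooth muscle, fell from 4.80 and 4.39 to 0.446 and 0.858 FPKM (log2 -1.77 ± 0.18, adjusted p = 1.82e-04). The receptor gene Notch3 was at 41.7 and 37.6 FPKM in WT and 35.5 and 43.5 FPKM in those labelled Hira-null (log2 -0.01 ± 0.11, adjusted p = 0.948).

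Retinoic acid is made from vitamin A and patterns hindbrain, heart and trunk, and cells that receive it raise the genes that degrade and bind it. Of this list 1 of 18 measured members rose, 9 fell and 8 did not pass the test, with a median log2 fold change of -0.49 (1 rose and 8 fell of the 16 that were not 1-group genes). Cyp26a1, the enzyme that degrades retinoic acid, fell from 12.8 and 13.99 to 1.51 and 1.42 FPKM (log2 -2.55 ± 0.14, adjusted p = 1.56e-05). Crabp1, which binds it inside the cell, fell from 36.8 and 35.5 to 7.56 and 8.12 FPKM (log2 -2.07 ± 0.18, adjusted p = 1.00e-04). The receptor gene Rara, on chromosome 11, fell from 30.96 and 29.7 to 19.07 and 20.4 FPKM (log2 -0.60 ± 0.09, adjusted p = 0.00113). Rxrb was at 20.4 and 19.6 FPKM in WT and 19.8 and 26.8 FPKM in those labelled Hira-null (log2 0.20 ± 0.15, adjusted p = 0.33). Without chromosomes 8 and 11, 8 of 17 fell.

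Hox genes, which set position along the body axis, were at 12.7 FPKM or less in every library (the highest was Hoxb2). Of paralogs 10 to 13, expressed towards the tail and in limbs, 0 of 9 measured members rose, 8 fell and 1 did not pass the test, with a median log2 fold change of -1.36. All 8 that fell, Hoxa10, Hoxd10 and Hoxd11 among them, were 1-group genes, so the count says nothing of the list. None of these genes lies on chromosome 8 or 11. Hoxa10 fell from 4.26 and 4.64 to 0.143 and 0.234 FPKM (log2 -2.20 ± 0.16, adjusted p = 4.92e-05). Hoxd11 fell from 3.05 and 3.38 to 0.240 and 0.324 FPKM (log2 -1.72 ± 0.16, adjusted p = 1.43e-04). Hoxd10 fell from 3.96 and 4.11 to 0.425 and 0.738 FPKM (log2 -1.68 ± 0.17, adjusted p = 1.83e-04). Of paralogs 5 to 9, 2 rose and 7 fell of 13 (1 rose and 3 fell of the 8 that were not 1-group genes), and 3 fell without WT replicate 2 and 4 without Hira-null replicate 1. Hoxa9 fell from 1.68 and 1.74 to 0.243 and 0.325 FPKM (log2 -1.08 ± 0.16, adjusted p = 0.00111). Hoxb9, on chromosome 11, rose from 2.99 and 2.59 to 6.53 and 6.5004 FPKM (log2 0.99 ± 0.16, adjusted p = 0.00177). Of paralogs 1 to 4, of the hindbrain, 6 fell of 10 and none rose (0 rose and 3 fell of the 7 that were not 1-group genes), but the Hoxb cluster lies on chromosome 11 and without it 2 of 6 fell. Leaving out 1 library gave smaller counts there too, since 3 fell without WT replicate 1 and 2 without WT replicate 2. Hoxb1 fell from 2.66 and 2.01 to 0.378 and 0.253 FPKM (log2 -1.34 ± 0.18, adjusted p = 6.34e-04).

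**Figure D5:**
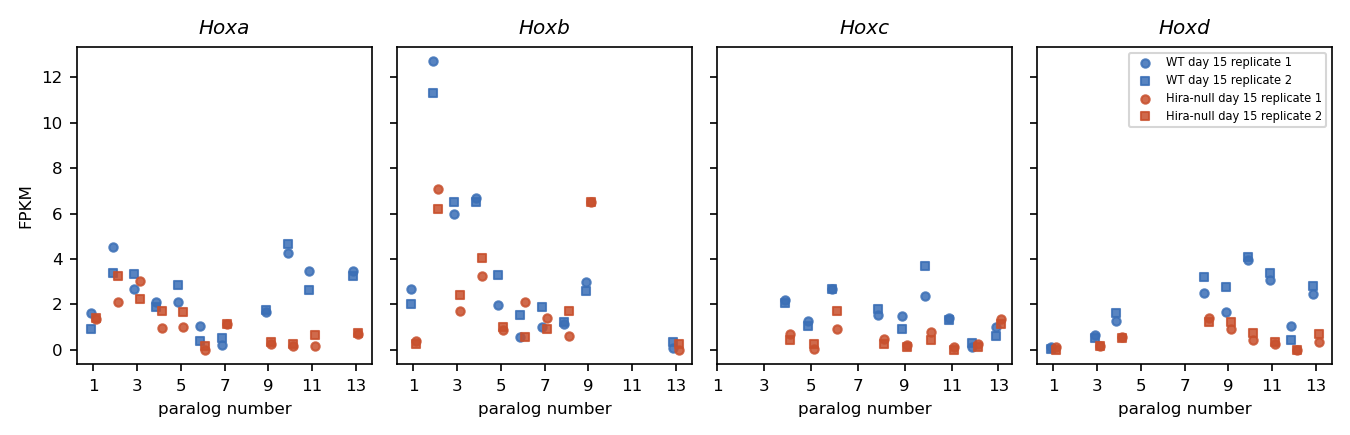
FPKM of the Hox genes in the 4 day 15 libraries by cluster and paralog number. Paralogs 9 to 11 and 13 of Hoxa and Hoxd sit lower in the libraries labelled Hira-null, and Hoxb9 is the point that sits clearly higher.

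Of the cartilage and bone list 10 of 18 measured members rose, 3 fell and 5 did not pass the test, with a median log2 fold change of 0.67 (9 rose and 2 fell of the 16 that were not 1-group genes), and 0 fell without WT replicate 1, 1 without WT replicate 2 and 0 without Hira-null replicate 1. Col2a1, the collagen of cartilage and of notochord, rose from 44.2 and 39.6 to 154 and 213 FPKM (log2 2.09 ± 0.17, adjusted p = 7.62e-05). Col11a1, its partner in the fibril, rose from 30.6 and 28.9 to 72.2 and 82.6 FPKM (log2 1.35 ± 0.12, adjusted p = 1.22e-04). Col10a1, of hypertrophic cartilage, was low in WT and rose from 0.102 and 0.409 to 2.58 and 4.33 FPKM (log2 1.81 ± 0.22, adjusted p = 4.61e-04). Acan, the large proteoglycan of cartilage, rose from 1.89 and 2.05 to 5.81 and 7.57 FPKM (log2 1.36 ± 0.15, adjusted p = 2.72e-04), and so did Sox9, the master factor of cartilage that glia, crest and notochord also use, from 16.1 and 14.8 to 32.9 and 31.8 FPKM (log2 1.02 ± 0.15, adjusted p = 9.92e-04). Of the somite, limb and notochord list 4 of 12 measured members rose, 2 fell and 6 did not pass the test, with a median log2 fold change of 0.01 (4 rose and 0 fell of the 9 that were not 1-group genes), and 2 rose without WT replicate 2. Without its 1-group genes that list had a median of 0.26. Meox1, of somites and on chromosome 11, fell from 2.07 and 1.70 to 0.102 and 0.381 FPKM (log2 -1.22 ± 0.21, adjusted p = 0.00224). Of the kidney and intermediate mesoderm list 5 of 15 measured members rose, 5 fell and 5 did not pass the test, with a median log2 fold change of -0.27 (5 rose and 3 fell of the 13 that were not 1-group genes), and 3 rose without WT replicate 1.

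The sum of the skeletal muscle list was 105 and 107 FPKM in WT and 311 and 342 FPKM in the libraries labelled Hira-null, a ratio of 3.09. Of its 16 measured members 3 rose, 8 fell and 5 did not pass the test, with a median log2 fold change of -0.35. Of the 10 that were not 1-group genes 3 rose and 2 fell, with a median of 0.06. Fewer passed with 1 library left out, since 5 fell without WT replicate 1, 5 without WT replicate 2 and 5 without Hira-null replicate 1. The sum followed Car3, carbonic anhydrase 3, which slow muscle, fat and notochord make, and which was at 15.2 and 16.6 FPKM in WT and 253 and 278 FPKM in those labelled Hira-null (log2 3.98 ± 0.28, adjusted p = 4.92e-05). The master factors Myod1 and Myog were both 1-group genes, so they had to be lower. Myod1 fell from 2.004 and 1.66 to 0 and 0.227 FPKM (log2 -1.35 ± 0.19, adjusted p = 8.47e-04), and Myog was at 3.01 and 3.06 FPKM in WT and listed at 0 in both of the Hira-null label (adjusted p = 1.59e-04), at least 13.8-fold lower at a limit of 3 fragments. Tnnt3, fast skeletal troponin T and also a 1-group gene, fell from 4.07 and 5.48 to 0.400 and 0.375 FPKM (log2 -2.05 ± 0.25, adjusted p = 4.28e-04). Of the adipocyte list, 3 rose and 1 fell of 7 (2 rose and 0 fell of the 5 that were not 1-group genes). Cd36, a fatty acid receptor, rose from 0.622 and 0.782 to 8.002 and 6.07 FPKM (log2 2.23 ± 0.26, adjusted p = 3.56e-04). Fabp4, of fat cells and capillaries, fell from 3.31 and 1.46 to 0.350 and 0.164 FPKM (log2 -1.38 ± 0.25, adjusted p = 0.00329), and Adipoq, made in mature fat, was at 0 in all 4 libraries.

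Of the simple epithelium list 2 of 25 measured members rose, 11 fell and 12 did not pass the test, with a median log2 fold change of -0.44, and 5 fell without WT replicate 1 and 7 without WT replicate 2. Epcam, of all simple epithelia, was at 21.01 and 22.6 FPKM in WT and 18.2 and 21.6 FPKM in those labelled Hira-null (log2 -0.13 ± 0.10, adjusted p = 0.339). Cldn7, a tight junction claudin on chromosome 11, fell from 14.9 and 12.1 to 6.64 and 3.54 FPKM (log2 -1.29 ± 0.21, adjusted p = 0.00195). Of the epidermis list 2 of 13 measured members rose, 8 fell and 3 did not pass the test, with a median log2 fold change of -0.73 (2 rose and 6 fell of the 11 that were not 1-group genes), and 5 of the 8 outside chromosomes 8 and 11 fell, while 5 fell without WT replicate 1. Krt5, a keratin of basal epidermis, fell from 7.27 and 7.56 to 1.90 and 2.69 FPKM (log2 -1.36 ± 0.19, adjusted p = 7.40e-04). Perp, a p53 target of desmosomes, rose from 20.6 and 22.7 to 47.7 and 43.5 FPKM (log2 1.04 ± 0.09, adjusted p = 8.63e-05). In the list of motile cilia 6 of 10 measured members rose, 2 fell and 2 did not pass the test, with a median log2 fold change of 0.69 (5 rose and 2 fell of the 9 that were not 1-group genes), and 3 rose without WT replicate 2 and 3 without Hira-null replicate 2. Outside chromosomes 8 and 11, 2 of 6 rose. Foxj1, the master factor of motile cilia, rose from 4.03 and 2.85 to 8.71 and 11.6 FPKM (log2 1.33 ± 0.21, adjusted p = 0.00144). Folr1, a folate receptor of neural tube and choroid plexus, rose from 4.15 and 3.40 to 12.6 and 14.7 FPKM (log2 1.62 ± 0.12, adjusted p = 5.57e-05).

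Stem cell genes remained at day 15 in both groups and changed in both directions. Of the pluripotency list 15 of 35 measured members rose, 11 fell and 9 did not pass the test, with a median log2 fold change of 0.15 (15 rose and 10 fell of the 34 that were not 1-group genes), and 7 fell without WT replicate 2. Pou5f1, the OCT4 gene, rose from 86.2 and 77.8 to 139 and 149.5 FPKM (log2 0.81 ± 0.07, adjusted p = 1.13e-04). Dnmt3l, a cofactor of DNA methylation, rose most, from 7.87 and 7.32 to 26.5 and 25.5 FPKM (log2 1.65 ± 0.07, adjusted p = 7.58e-06). Nanog fell from 35.1 and 33.5 to 21.4 and 22.5 FPKM (log2 -0.62 ± 0.07, adjusted p = 2.80e-04). Zfp42, the REX1 gene on chromosome 8, fell from 58.7 and 55.2 to 36.6 and 39.4 FPKM (log2 -0.57 ± 0.08, adjusted p = 7.53e-04). Dppa3, of naive stem cells and primordial germ cells, fell most, from 12.98 and 8.24 to 0.823 and 0.257 FPKM (log2 -2.91 ± 0.28, adjusted p = 1.56e-04). Core factors of 1 network thus differed in direction.

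Some germ cell genes that fell at day 15 stood higher at day 0. Of the list 2 of 15 measured members rose, 6 fell and 7 did not pass the test, with a median log2 fold change of -0.17 (2 rose and 3 fell of the 11 that were not 1-group genes). Stra8, which retinoic acid induces before meiosis, fell from 4.30 and 4.34 to 0.617 and 0.722 FPKM (log2 -1.67 ± 0.16, adjusted p = 1.27e-04), but at day 0 it was at 6.16 and 8.22 FPKM in WT and 37.5 and 42.9 FPKM in the libraries labelled Hira-null (log2 2.34, adjusted p = 2.47e-05). Dazl, an RNA-binding protein of germ cells, fell from 5.44 and 7.14 to 1.25 and 1.42 FPKM (log2 -1.63 ± 0.21, adjusted p = 5.15e-04) and was at 11.7 and 19.05 FPKM in WT and 79.7 and 78.5 FPKM in the libraries labelled Hira-null at day 0 (log2 2.33, adjusted p = 7.49e-05). Smc1b, a cohesin subunit of meiosis, behaved alike, from 2.55 and 2.66 to 0.556 and 0.624 FPKM at day 15 (log2 -1.18 ± 0.15, adjusted p = 5.46e-04) and 6.69 and 6.04 FPKM in WT and 15.5 and 19.2 FPKM in the libraries labelled Hira-null at day 0 (log2 1.31, adjusted p = 2.56e-04). Of the trophoblast list 0 of 8 measured members rose, 7 fell and 1 did not pass the test, with a median log2 fold change of -1.18 (0 rose and 6 fell of the 7 that were not 1-group genes), and 4 fell without WT replicate 1. It shares Hand1, Eomes and Cdx2 with other lineages, and Prl3d1, of trophoblast giant cells, was at 0 in all 4 libraries. Rhox9, a homeobox gene of placenta and gonad, fell from 4.69 and 5.03 to 1.27 and 1.19 FPKM (log2 -1.39 ± 0.20, adjusted p = 0.00104).

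Imprinted genes, expressed from 1 parental copy, gave some of the largest changes at high levels, in both directions. Of the list 13 of 43 measured members rose, 13 fell and 17 did not pass the test, with a median log2 fold change of 0.06, and 8 rose without WT replicate 1 and 7 without WT replicate 2. H19 and Igf2 are neighbours on chromosome 7 that share enhancers and are expressed from opposite parental copies. H19, a noncoding RNA (mm9 chr7:149761434-149764048, minus strand), was at 3890.2 and 3941 FPKM in WT and 101 and 117 FPKM in the libraries labelled Hira-null (log2 -5.15 ± 0.07, adjusted p = 4.69e-09). Igf2, a growth factor (mm9 chr7:149836673-149852721, minus strand), was at 164 and 162 FPKM in WT and 819.6 and 804 FPKM in those labelled Hira-null (log2 2.31 ± 0.11, adjusted p = 7.68e-06). The fall of H19 was already present at day 0 (579.9 and 589 FPKM in WT and 20.3 and 20.8 FPKM in the libraries labelled Hira-null, log2 -4.76, adjusted p = 7.05e-09), when Igf2 was at 10.5 and 12.2 FPKM in WT and 15.2 and 18.9 FPKM in the libraries labelled Hira-null (log2 0.55, adjusted p = 0.00368). Cdkn1c, a cell cycle inhibitor on the same chromosome (mm9 chr7:150644255-150646955, minus strand), rose from 15.1 and 15.5 to 109 and 137 FPKM (log2 2.92 ± 0.15, adjusted p = 1.17e-05).

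Other imprinted loci also differed in direction. Plagl1, a zinc finger factor (mm9 chr10:12810497-12851500, plus strand), fell from 109.6 and 114 to 6.59 and 6.05 FPKM (log2 -3.95 ± 0.13, adjusted p = 2.30e-06). Dlk1, a Notch-like ligand on chromosome 12 (mm9 chr12:110691033-110701546, plus strand), fell from 101 and 92.3 to 27.5 and 31.9 FPKM (log2 -1.67 ± 0.12, adjusted p = 4.92e-05). Peg3, at one of the highest levels of the list, was at 323 and 310.1 FPKM in WT and 274 and 286 FPKM in those labelled Hira-null (log2 -0.18 ± 0.09, adjusted p = 0.172). Of 2 genes chosen after their values were seen, Grb10, an adaptor that restrains insulin signals (mm9 chr11:11830511-11938686, minus strand), rose from 21.2 and 19.4 to 94.6 and 89.9 FPKM (log2 2.13 ± 0.08, adjusted p = 2.62e-06) although it lies on chromosome 11, and Mest (mm9 chr6:30673547-30698457, plus strand) fell from 318 and 317 to 128 and 109 FPKM (log2 -1.42 ± 0.09, adjusted p = 2.79e-05). The allele from which a transcript came was not measured. Igfbp2, in no list, which encodes a carrier of IGF2, rose from 127 and 125 to 460.4 and 556 FPKM (log2 1.997 ± 0.09, adjusted p = 7.68e-06).

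Of the glycolysis list, which also holds hypoxia targets, 0 of 29 measured members rose, 18 fell and 11 did not pass the test, with a median log2 fold change of -0.46, and 15 of the 25 outside chromosomes 8 and 11 fell. Slc2a3, a glucose transporter, fell from 155 and 159 to 78.3 and 68.97 FPKM (log2 -1.08 ± 0.07, adjusted p = 2.94e-05). The lactate exporter Slc16a3, on chromosome 11, fell from 48.2 and 46.7 to 18.03 and 17.5 FPKM (log2 -1.37 ± 0.06, adjusted p = 7.68e-06). Aldoa, aldolase, fell from 358 and 335 to 187 and 219 FPKM (log2 -0.77 ± 0.08, adjusted p = 2.01e-04). Slc2a3 and Aldoa stood higher at day 0 instead, Slc2a3 at 839 and 851 FPKM in WT and 1198 and 1182 FPKM in the libraries labelled Hira-null (log2 0.49, adjusted p = 6.79e-04) and Aldoa at 1422 and 1402 FPKM in WT and 2608 and 2589 FPKM in the libraries labelled Hira-null (log2 0.88, adjusted p = 8.46e-05). Gapdh, a later enzyme of the pathway, was at 371 and 351 FPKM in WT and 346 and 407 FPKM in those labelled Hira-null (log2 0.06 ± 0.08, adjusted p = 0.611). Pkm, pyruvate kinase, was at 395 and 394 FPKM in WT and 383 and 474 FPKM in those labelled Hira-null (log2 0.11 ± 0.09, adjusted p = 0.372). Under quantile normalization these last 2 passed the test as higher, Gapdh at 0.26 (adjusted p = 0.0194) and Pkm at 0.37 (adjusted p = 0.00392), and Pkm also passed without Hira-null replicate 1 (adjusted p = 0.0126). Of cholesterol synthesis genes 5 rose (20.8%) and 4 fell (16.7%) of 24, all by less than 2-fold. Of fatty acid oxidation genes 6 rose (23.1%) and 5 fell (19.2%) of 26 (5 rose and 4 fell of the 24 that were not 1-group genes). These shares were close to the 19.8% and 19.7% of all genes, so neither list stood out. In the cholesterol list 3 rose without WT replicate 1, and 0 fell without WT replicate 1, 0 without WT replicate 2 and 2 without Hira-null replicate 1, and in the oxidation list 2 rose without WT replicate 1 and 1 without WT replicate 2, and 1 fell without WT replicate 1, 2 without WT replicate 2 and 3 without Hira-null replicate 2.

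Of DNA replication and mitosis genes 1 of 40 measured members rose, 18 fell and 21 did not pass the test, with a median log2 fold change of -0.22, and 12 of the 34 outside chromosomes 8 and 11 fell. Aurkb, a mitotic kinase on chromosome 11, fell from 34.6 and 35.1 to 15.7 and 15.2 FPKM (log2 -1.12 ± 0.08, adjusted p = 4.92e-05). Cdt1, which licenses replication origins and lies on chromosome 8, fell from 47.7 and 41.4 to 19.4 and 22.2 FPKM (log2 -1.06 ± 0.10, adjusted p = 1.13e-04). Ccne1, cyclin E1, rose from 11.1 and 11.6 to 23.1 and 23.7 FPKM (log2 0.99 ± 0.08, adjusted p = 8.61e-05). Of the inhibitors 7 of 18 measured members rose, 0 fell and 11 did not pass the test, with a median log2 fold change of 0.32, and 4 rose without WT replicate 1 and 3 without WT replicate 2. Cdkn1a, the p21 gene that p53 induces, rose from 163 and 158 to 234 and 251 FPKM (log2 0.60 ± 0.07, adjusted p = 3.76e-04). Gadd45b, of growth arrest, rose from 8.47 and 7.82 to 18.97 and 18.3 FPKM (log2 1.10 ± 0.10, adjusted p = 1.03e-04).

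Of the ribosomal protein list 2 of 72 measured members rose, 50 fell and 20 did not pass the test, with a median log2 fold change of -0.33. None fell by 2-fold, and under quantile normalization 32 fell, with a median of -0.18. Leaving out 1 library also lowered the count, since 24 fell without WT replicate 1 and 25 without WT replicate 2. Outside chromosomes 8 and 11, 42 of 64 fell, with a median of -0.28. These genes have many near-identical pseudogene copies, among which reads could be split. Rps26, on chromosome 10, fell from 1056 and 1057 to 755 and 684 FPKM (log2 -0.56 ± 0.07, adjusted p = 5.90e-04). In the stress list 12 rose and 13 fell of 37, while outside chromosomes 8 and 11 it was 12 and 6 of 29, and 7 rose without WT replicate 1 and 6 without WT replicate 2. The metallothionein genes Mt1 and Mt2 lie on chromosome 8. Mt1 fell from 134 and 112 to 55.9 and 41.9 FPKM (log2 -1.32 ± 0.14, adjusted p = 2.25e-04). Mt2 fell from 176 and 161 to 69.03 and 65.8 FPKM (log2 -1.31 ± 0.09, adjusted p = 3.52e-05). Hmox1, which degrades haem and lies on the same chromosome, fell from 83.9 and 78.9 to 35.1 and 34.5 FPKM (log2 -1.20 ± 0.08, adjusted p = 4.75e-05). In the antigen presentation and interferon list 3 rose and 5 fell of 27 (2 rose and 5 fell of the 25 that were not 1-group genes), and 1 rose without WT replicate 1, and 3 fell without WT replicate 1 and 3 without WT replicate 2. The share of this list that fell, 18.5%, was close to the 19.7% of all genes, and the share that rose was 11.1%, against 19.8%. Bst2, tetherin, on chromosome 8, fell from 42.96 and 45.5 to 13.3 and 23.04 FPKM (log2 -1.28 ± 0.19, adjusted p = 0.00124). Tapbp, which loads peptides onto MHC class I, rose from 19.9 and 19.6 to 33.8 and 38.6 FPKM (log2 0.84 ± 0.10, adjusted p = 3.22e-04).

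Outside all gene lists, the 12 largest rises at 5 FPKM or more were those of Apod, C130021I20Rik, C920025E04Rik, Cbln1, Foxd1, Ly6h, Mir762, Pcp4, Rmst, Scarna10, Shc3 and Zfp536, and 5 of them are described here. Rmst, a long noncoding RNA of neural progenitors, rose from 6.04 and 6.38 to 41.4 and 39.8 FPKM (log2 2.53 ± 0.14, adjusted p = 1.44e-05). Pcp4, a calmodulin regulator of Purkinje cells and other neurons, rose from 0.662 and 2.26 to 14.7 and 11.5 FPKM (log2 2.59 ± 0.29, adjusted p = 2.78e-04). Shc3, the neuronal member of its adaptor family, rose from 1.59 and 0.667 to 9.13 and 11.6 FPKM (log2 2.44 ± 0.23, adjusted p = 1.28e-04). Apod, a lipid carrier of glia and fibroblasts, rose from 1.07 and 0.699 to 9.69 and 10.8 FPKM (log2 2.58 ± 0.23, adjusted p = 1.13e-04). Foxd1, a forkhead factor of kidney stroma and diencephalon, rose from 3.28 and 3.19 to 19.9 and 23.2 FPKM (log2 2.41 ± 0.19, adjusted p = 6.70e-05). Marcksl1, an actin-regulating protein of growing neurites, was among the most abundant genes that rose by 2-fold or more, from 189 and 174 to 349 and 443 FPKM (log2 1.11 ± 0.10, adjusted p = 1.24e-04).

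Of the 12 genes outside the lists that fell most, 7 encode short RNAs, which libraries of messenger RNA catch poorly. These were Mir377, Mir409, Mir665, Scarna9, Snora21, Snord2 and Snord95. Mir377 was at 6.24 and 5.02 FPKM in WT and listed at 0 in both of the Hira-null label, as were the others except Snora21. Where the fragments could be recovered they were few: 4 and 9 in the WT libraries for Scarna9, 5 and 4 for Snord2 and 11 and 13 for Snora21. Scarna9, Snora21 and Snord95 lost their calls without single libraries (adjusted p = 0.249 without WT replicate 2, adjusted p = 0.144 without WT replicate 1 and adjusted p = 0.22 without WT replicate 1). The most abundant gene that rose by 2-fold or more was Rpph1, the RNA of ribonuclease P, at 8086 and 6913 FPKM in WT and 14264 and 17582 FPKM in the libraries labelled Hira-null (log2 1.08 ± 0.11, adjusted p = 2.18e-04). Under quantile normalization its difference was 0.00. That method gives genes of equal rank the same value in every library, so the 0.00 cannot show whether the change holds. The highest that fell after H19 was Gnb2l1, the RACK1 gene on chromosome 11 (from 1349 and 1243 to 632 and 657 FPKM, log2 -1.01 ± 0.07, adjusted p = 3.52e-05), which overlaps Snord95 on the same strand.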

How the data were processed

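RNA was measured in 8 libraries, 2 for each of WT and Hira-null at day 0 and day 15. Per the labels, polyadenylated RNA was captured with a strand-marking kit. The notes of the submitters name Bowtie 0.12.2, DESeq2 1.6.3 and mm9, and none of these sources states whether the counting used strand. The authors deposited FPKM per gene, fragments scaled by gene length and library size, and these were the values used. Tables of the authors' own comparisons (mean normalized counts, log2 fold changes, standard errors and p-values) were not used. In FPKM steps, 100% of the values above 0 were whole multiples of 1 fragment within 0.1 fragment, which gave the depths and the limit of 3 fragments used where a gene was listed at 0. Limits of this kind cover counting error only.

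FPKM were taken to log2(FPKM + 1) and group means fitted by limma (version 3.58.1, R 4.3.3), weighted by day (1.03 for day 0, 0.968 for day 15) and moderated with a trend, and p-values were adjusted by Benjamini-Hochberg over the 14337 genes that reached 1 FPKM in 2 or more of all 8 libraries. There were 4 residual degrees of freedom and 4.70 prior degrees of freedom, so p-values measure the spread between 2 samples a group, and all 4 groups share the estimate for a gene. The script was tested on simulated data. Gene lists were described by counts, medians and sums alone. Genes named were the defining markers of each list, its 3 most abundant genes, its 3 called genes of largest change, and, outside the lists, the 12 largest changes each way at 5 FPKM or more and the 10 most abundant called at 2-fold, with exceptions said beside them. The members and lists were chosen with earlier results of these data known. Positions are from mm9 gene models (13003 genes) and promoters from RefSeq (GRCm38.p6). Of the 386 genes the rule gave, 52 overlap exons of an antisense gene and 23 those of a gene transcribed in the same direction, and such reads may not be told apart. Alternatives were other pseudocounts, filters, scalings, samples and weights, a replicate block and leaving out each day 15 library. Results for a few genes are not reported here. Summaries and plots were made in Python 3.11.15.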

Additional observations from a re-analysis of the deposited data

Results flagged for a closer look

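For 28 of the named genes the difference between the libraries labelled Hira-null and WT had opposite signs at day 0 and day 15, and the test of the difference between the days passed (limma, adjusted p from 1.98e-05 to 0.00559). The share of all 14337 fitted genes that turned in this way was not counted. The named genes were picked in part for their day 15 changes. Whether such turns were more common among them, or among markers of any lineage, is therefore not known. Each value below is the day 15 difference minus the day 0 difference on the log2(FPKM + 1) scale, and each day's difference passed its own test except that of Hira at day 15.

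Hira itself gave 1.37 ± 0.15, from -1.17 at day 0 to 0.20 at day 15. Genes lower at day 0 and higher at day 15 were Ntn1 (5.14), Cdh6 (3.53), En2 (2.98), Foxa2 (2.40), Lrp2 (2.31), Timp2 (2.14) and Id3 (1.87). En2, a midbrain factor, went from -0.93 to 2.05, and Foxa2 from -1.44 to 0.96.

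Genes higher at day 0 and lower at day 15 included markers of endoderm, heart and blood. Afp gave -7.12, Fgb -2.52, Myl7 -3.05, Actc1 -1.91, Eomes -1.39, Tyrobp -4.02 and Eng -1.82. Myl7 was at 0.68 and Actc1 at 1.07 at day 0. Germ cell genes gave the values -4.01 for Stra8, -3.96 for Dazl and -2.49 for Smc1b. The other genes were Cldn7 at -2.31, Sfrp1 at -2.01, Erbb3 at -1.67, Aldoa at -1.65, Slc2a3 at -1.58, Boc at -1.55, Mmp2 at -1.35, Rps26 at -1.05, Nanog at -0.84 and Gli2 at -0.80. Cldn7, Mmp2 and Sfrp1 lie on chromosomes 8 and 11, whose genes were lower at both days in their medians. The day 15 calls of Actc1 (highest adjusted p = 0.174, limma), Eomes (0.0527), Gli2 (0.160), Lrp2 (0.257) and Timp2 (0.122) were lost when 1 library was left out, and that of Actc1 also at a pseudocount of 0.1 and with no filter on low values. Both days used the same clone, and the cause of the turns was not tested.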

How the results depend on the processing

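Of the 215 genes named with a fit at day 15, 178 stayed on the same side of the threshold and in the same direction under all 13 alternatives. The counts of 2656 higher and 2643 lower genes ran from 1257 to 2366 and from 1270 to 2338 when 1 library was left out, with 1 WT library then standing alone in the lowest of them. With genes on chromosomes 8 and 11 left out, an alternative chosen after seeing the data, 1688 fell, and the genes that fell were 9 in the endothelial list, 2 in the megakaryocyte and mast cell list and 5 in the epidermis list, while 2 of the motile cilia list rose. At a pseudocount of 0.1, 4 cardiomyocyte and 8 macrophage genes fell, and 3 kidney genes and 1 eye gene rose. The eye list also had 1 gene that rose at a pseudocount of 0.5, with no filter and under quantile normalization. Leaving out 1 library gave 2 to 7 cardiomyocyte, 9 to 14 macrophage, 2 to 4 megakaryocyte and mast cell, 5 to 12 simple epithelium, 5 to 9 epidermis, 5 to 6 skeletal muscle and 4 to 7 trophoblast genes that fell. It gave 16 to 24 neural progenitor, 5 to 8 glutamatergic, 7 to 11 astrocyte, 1 to 2 eye, 3 to 4 motile cilia, 3 to 5 kidney and 2 to 4 somite and notochord genes that rose. Hira ran from 0.086 to 0.32 on the log2 scale and passed the test as higher without Hira-null replicate 1 (adjusted p = 0.0497, limma). Under quantile normalization Serpinh1 came to 0.12 and Rpph1 to 0.00, a value that an equal rank in all libraries would force. Leaving out 1 library turned the sign of 7 genes that did not pass in the fit reported, with log2 values from -0.25 to 0.17 for Actn2, -0.060 to 0.17 for Gapdh, -0.10 to 0.16 for Krt19, -0.15 to 0.13 for Notch3, -0.041 to 0.26 for Pkm, -0.013 to 0.40 for Rxrb and -0.043 to 0.28 for Smo. Of these, Pkm (adjusted p = 0.0126) and Rxrb (adjusted p = 0.0452) passed as higher without Hira-null replicate 1, and Gapdh (0.26) and Pkm (0.37) passed as higher under quantile normalization (limma). The cause of these shifts was not tested. The differences between replicates 1 and 2 of the groups correlated at -0.10 at day 15 and 0.013 at day 0 over 13421 genes. Same-numbered samples thus did not deviate together. With 1 such difference a group, this cannot show whether the samples were paired. With a replicate block 1971 genes rose and 2039 fell, and with the pairing crossed, chosen after seeing the data, 3049 rose and 2957 fell. With 8480380 to 11086294 fragments a library, genes near 1 FPKM rested on few fragments.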
